A study of Mus musculus with 9 samples.

Results

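The Epha4 locus was described here through every counted ATAC-seq region on mouse chr1 between 76000000 and 78000000 (mm10), a stretch that held 82 of the 157497 regions of the series. ATAC-seq places sequencing adapters into open DNA with a transposase, so the reads counted in a region measure how accessible it is. Each region was given to its nearest protein-coding gene in RefSeq GRCm38, which assigned 69 regions to Epha4 and left 13 others, 5 nearest to Slc4a3 and 8 nearest to Pax3. All 82 passed the filter on low counts. The locus was picked because its accessibility had been seen to differ between these libraries, so the values of its regions and their fitted fold changes are given as a description, without p-values.

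The 9 libraries came from mouse embryonic stem cells (ESC), 3 in each of 3 groups. The NanogKO group is a knockout of Nanog, the NanogKO:Esrrb group has Esrrb on top of the knockout, and the NanogKO:Esrrb:Nanog group has Esrrb and Nanog on top of it, so all groups carry the knockout. All cells were untreated, grew in 10% serum with 1000 U/ml of leukaemia inhibitory factor, and were sorted as PECAM+ and PDGFRA-. The cell line is N{delta} for NanogKO and N{delta}:cE:iN for both other groups, and each group has its own code in the titles (44C6, 44J and 44JN), so each comparison also sets differently named or coded cells against each other. A change with Esrrb is that of NanogKO:Esrrb against NanogKO, a change with both factors that of NanogKO:Esrrb:Nanog against NanogKO, and the groups with Esrrb are both groups other than NanogKO. How Esrrb and Nanog were added is not stated, nor whether replicates were separate cultures, so the spread between replicates may be technical.

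Epha4 encodes a receptor tyrosine kinase of the Eph family, which binds membrane-bound ephrin ligands of both the A and the B class on neighbouring cells. Eph and ephrin signalling is best known for cell repulsion, boundary formation and axon guidance. Accessible regions away from a gene's start are often enhancers. ESRRB is an orphan nuclear receptor that binds a single extended half-site, and NANOG is a homeodomain factor of the same pluripotency network.

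Total counts ran from 35545030 to 58520948 per library, and the median count per region from 96 to 175. Values are CPM, counts per 1000000 of the library total, the total being adjusted by a TMM factor. This scaling assumes that most regions do not change between libraries. A higher CPM can mean that a region was open in more cells or more often open per cell, which bulk counts cannot tell apart. As a check of cell identity, regions within 1 kb of the start or end of 8 of 8 stem cell marker genes summed to 269 to 302 CPM in the NanogKO libraries, 368 to 417 in NanogKO:Esrrb and 404 to 445 in NanogKO:Esrrb:Nanog. For primitive endoderm, 6 of 7 marker genes had such a region, with sums of 197 to 209, 155 to 186 and 169 to 183 CPM in the same order, and no region lay at Gata4. For fibroblasts, the feeder cell type, it was 5 of 6, with 72.6 to 80.4, 68.9 to 69.6 and 68.3 to 74.8 CPM, and none at Col3a1. NanogKO and NanogKO:Esrrb thus did not overlap in any of these sums. Most marker genes moved with their sums, but Sox7 had 9.89 and 10.6 CPM in these groups, Col1a1 8.78 and 9.09, and Sall4 26.3 and 26.0. Thy1 had 15.1 CPM in both, and Sox17 alone gave 106 and 88.0 CPM of the primitive endoderm sums. The part of these shifts in the values at Epha4 was not tested.

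Epha4 (gene 13838) lies on the minus strand at chr1:77367182-77515107, and the region over its start is the largest of the locus by count. The 250 bases before the RefSeq start (GRCm38.p6, chr1:77515089-77515338, minus strand) are printed because this promoter gained less than the regions inside the gene. Capitals mark, from left to right, a GC box, GGGCGG. They next mark a CCAAT box on the other strand, so read here as ATTGG. Last comes a CRE half-site on the other strand, whose letters TGACGT read here as ACGTCA.
Epha4 promoter: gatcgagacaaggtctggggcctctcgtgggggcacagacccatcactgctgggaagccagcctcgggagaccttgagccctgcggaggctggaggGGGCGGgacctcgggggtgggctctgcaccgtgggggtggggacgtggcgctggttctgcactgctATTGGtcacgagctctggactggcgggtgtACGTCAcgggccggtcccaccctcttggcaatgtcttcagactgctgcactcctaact

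The GC box lies 149 to 154 bases before the start, the CCAAT box 84 to 88 and the CRE half-site 53 to 58. Over 32851 RefSeq promoter windows of this length, 32.7% held GGGCGG, 33.8% CCAAT and 6.47% TGACGT on either strand. GC content was 66.0%, against a median of 52.4% over those windows. The ESRRB element TCAAGGTCA, found in 0.387% of windows, and its half-site AAGGTCA, found in 4.08%, were not among these 250 bases. Neither were the octamer ATGCAAAT (1.6% of windows), the SOX element ACAATGG (3.02%), the STAT element TTCCNGGAA (0.913%), the full CRE TGACGTCA (1.55%) nor the E-box CACGTG (6.02%).

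One region inside the gene also overlaps a RefSeq microRNA gene, Mir6352, and is the only one beyond the start for which a sequence was at hand. It was the second region of the locus by CPM. The hairpin's DNA (chr1:77496653-77496768, minus strand, 78 of its 116 bases within the region) is printed with the letters TGACCTT in capitals, which are the ESRRB half-site AAGGTCA read on the other strand.
Mir6352 hairpin DNA: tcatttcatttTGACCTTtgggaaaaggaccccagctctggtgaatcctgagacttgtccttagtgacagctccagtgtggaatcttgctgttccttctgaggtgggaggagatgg
mmu-miR-6352: uUUGGGAAaaggaccccagcuc

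The half-site covers hairpin bases 12 to 18 (chr1:77496751-77496757) and occurs in 2.0% of promoter stretches as long as the hairpin. It is a match of letters, and binding was not measured. In the mature microRNA (chr1:77496731-77496752) capitals mark the seed, bases 2 to 8, which 3 of 1738 mature mouse microRNAs in the table share, the others being mmu-miR-450b-3p and mmu-miR-450a-1-3p. The libraries measure DNA accessibility, so the level of the microRNA is not known.

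Accessibility over the 69 Epha4 regions together was higher in both groups with Esrrb. Summed over the regions, it was 154, 178 and 166 CPM in the NanogKO libraries replicates 1 to 3, 311, 351 and 293 CPM in the NanogKO:Esrrb libraries, and 316, 345 and 388 CPM in the NanogKO:Esrrb:Nanog libraries. Every library with Esrrb lay above every NanogKO library, while both groups with Esrrb overlapped each other. The group means were 166 ± 12 (SD, n = 3), 318 ± 30 and 350 ± 36 CPM, ratios of 1.92 and 2.11 to NanogKO and of 1.1 between the groups with Esrrb.

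**Figure D1:**
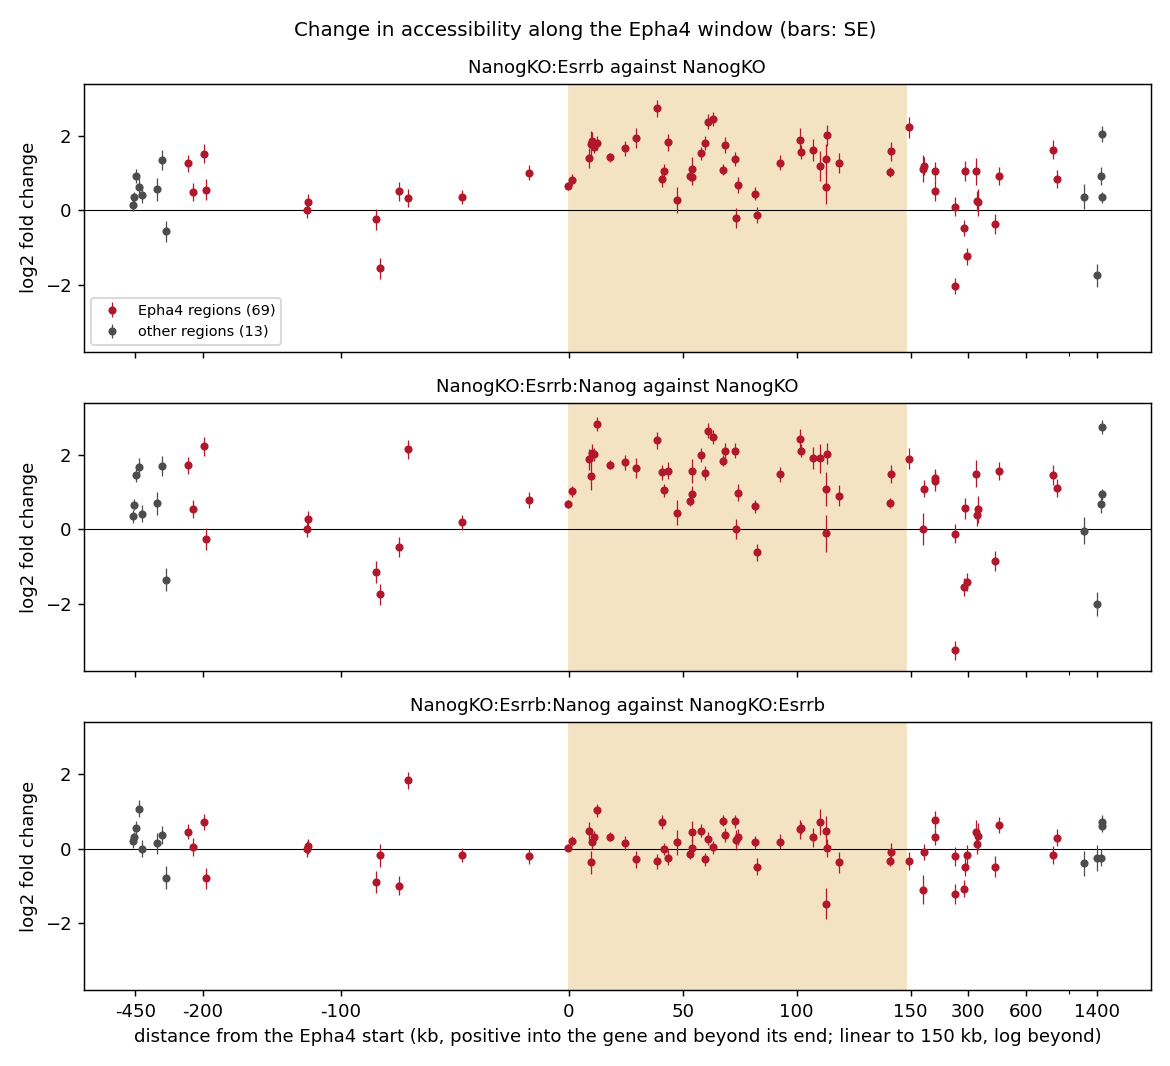
Fitted log2 fold change (y axis, bars ± SE) of the 82 regions against distance from the Epha4 start in kb (x axis, linear to 150 kb and logarithmic beyond, positive into the gene), with the gene shaded, for each of the 3 comparisons. Inside the gene, 35 of 39 regions were called higher in each comparison with NanogKO, and most lay near 0 between the groups with Esrrb.

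In NanogKO:Esrrb, 48 of the 69 Epha4 regions were called higher than in NanogKO, 3 lower and 18 neither, at a Benjamini-Hochberg adjusted p under 0.05 in edgeR's quasi-likelihood test. Of all tested regions, 20.0% were called higher and 17.0% lower in that comparison, 37.0% together; since the locus was chosen for its accessibility in these groups, nothing is read from the difference. The median log2 fold change of the Epha4 regions was 1.06, with a range from -2.03 to 2.74, against -0.01 over all tested regions. All 3 NanogKO:Esrrb libraries lay above all 3 NanogKO libraries in 50 regions and below them in 4, where 26.2% and 25.7% of all regions did so.

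In NanogKO:Esrrb:Nanog, 48 Epha4 regions were called higher than in NanogKO, 7 lower and 14 neither, against 24.9% of all regions called higher and 24.4% lower, 49.3% together. The median log2 fold change was 1.3, with a range from -3.24 to 2.84. The libraries lay wholly above those of NanogKO in 46 regions and wholly below in 6, where 26.7% and 27.8% of all regions did so. Both comparisons share the NanogKO libraries, so their likeness is in part built in.

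Between the groups with Esrrb, 11 Epha4 regions were called higher with Nanog, 7 lower and 51 neither, against 12.6% and 12.0% of all regions, 24.6% together. The median log2 fold change was 0.06. Single libraries moved these counts: the number called higher fell to 7 without NanogKO:Esrrb replicate 1, to 4 without its replicate 3 and to 6 without NanogKO:Esrrb:Nanog replicate 2. The number called lower was 4 without NanogKO:Esrrb replicate 3, 3 without NanogKO:Esrrb:Nanog replicate 1, 4 without its replicate 2 and 11 without its replicate 3. Scaling on regions near gene ends or on library totals alone left 5 and 6 called higher, and it moved the median of all regions in this comparison to -0.12 and -0.11.

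Across the 3 comparisons, 36 regions were called higher in both groups with Esrrb with no call between them, a pattern that 10.8% of all tested regions had. A further 9 were called higher in all 3 comparisons, that is, with Esrrb and again with Nanog, as were 4.01% of all. In 2 regions accessibility was called higher with Esrrb and lower again with Nanog, without a call against NanogKO in the group with both, as in 1.92% of all. Only 1 region was called lower at every step, where 2.56% of all were, and 9 had no call in any comparison, where 38.6% had none. The patterns rest on the calls that led to the choice of the locus, so nothing is read from these differences.

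The position of a region within the locus went with the size of its change. Inside the gene, 35 of 39 regions were called higher in NanogKO:Esrrb and none lower, with a median log2 fold change of 1.4. On the 3′ side, beyond the end of the gene, 9 of 17 were called higher and 2 lower, with a median of 0.83. On the 5′ side, upstream of the start, it was 3 of 12 higher and 1 lower, with a median of 0.43. In the same comparison, 20.0% of all tested regions were called higher and 17.0% lower. For higher calls, the 5′ side was thus near the share of all regions. Regions outside the gene but within 50 kb of it numbered 5, of which 4 were called higher and 0 lower, with a median of 1.12. Of the 24 regions farther than 50 kb away, 8 were called higher and 3 lower, with a median of 0.41.

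The same order of medians held in NanogKO:Esrrb:Nanog. Inside the gene, 35 of 39 regions were called higher than in NanogKO and 1 lower, with a median of 1.58. The 3′ side had 8 of 17 higher and 4 lower with a median of 0.57, and the 5′ side 4 of 12 higher and 2 lower with a median of 0.23. Of all tested regions, 24.9% were called higher and 24.4% lower, against 33.3% and 16.7% on the 5′ side. Within the gene the rise was spread along its whole length. In the first 50 kb from the start, 13 of 14 regions were called higher, with a median of 1.69. From 50 to 100 kb it was 13 of 15, with 1 lower and a median of 1.51, and from 100 kb to the end of the gene 9 of 10, with a median of 1.7.

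Summed by place, the 39 regions inside the gene, which cover 12262 bp, held 71.7, 81.6 and 77.4 CPM in the NanogKO libraries, 182, 219 and 169 CPM in the NanogKO:Esrrb libraries, and 191, 221 and 242 CPM in the NanogKO:Esrrb:Nanog libraries. The groups with Esrrb stood clear of NanogKO, at 2.48 and 2.83 times its mean. The 17 regions of the 3′ side summed to 17.7, 23.0 and 22.8 CPM, then 27.2, 28.1 and 26.7 CPM, then 25.8, 23.7 and 29.4 CPM, so that the libraries of NanogKO lay below the others by a small gap. The 12 regions of the 5′ side summed to 20.4, 26.3 and 23.3 CPM, then 30.1, 32.1 and 29.2 CPM, then 26.7, 31.1 and 44.1 CPM. There NanogKO:Esrrb:Nanog replicate 3 stood apart from its own group. Ratios of these sums to NanogKO were 1.29 and 1.24 on the 3′ side and 1.31 and 1.46 on the 5′ side. The order of both sides was thus not that of their medians.

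**Figure D2:**
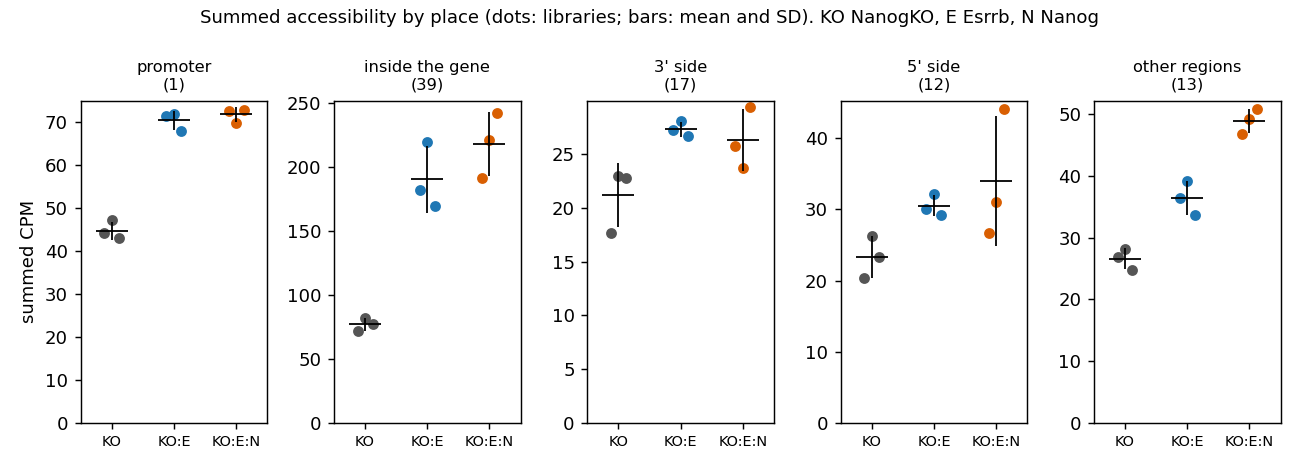
Summed CPM (y axis, from 0) of the Epha4 regions by place and of the other regions of the window, with 1 dot per library and bars for the mean and SD of 3 libraries. Inside the gene the groups with Esrrb lay at 169 to 242 CPM and NanogKO at 71.7 to 81.6 CPM.

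Replicates did not scatter evenly over the locus. NanogKO replicate 1 was the lowest of its group in 40 of the 69 regions. In NanogKO:Esrrb, replicate 2 was the highest in 48, by a median of 0.2 on the log2 scale over the group mean. In NanogKO:Esrrb:Nanog, replicate 3 was the highest in 46 and replicate 1 the lowest in 43. Over all 157439 tested regions, NanogKO replicate 1 was the lowest in 54451 and NanogKO:Esrrb replicate 2 the highest in 60376. There NanogKO:Esrrb:Nanog replicate 3 was the highest in 63573 and its replicate 1 the lowest in 55432. The median coefficient of variation per region was 16.9% in NanogKO, 17.9% in NanogKO:Esrrb and 21.3% in NanogKO:Esrrb:Nanog.

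The promoter region (chr1:77514295-77516796) had 44.2, 47.1 and 42.9 CPM in the NanogKO libraries, 71.4, 71.7 and 67.8 CPM in the NanogKO:Esrrb libraries, and 72.6, 69.7 and 72.7 CPM in the NanogKO:Esrrb:Nanog libraries. It was open in every library, lower in all 3 NanogKO libraries, and alike in the groups with Esrrb, whose values overlapped. The fitted log2 fold change was 0.65 ± 0.1 (SE) with Esrrb, 0.68 ± 0.1 with both factors and 0.03 ± 0.1 between these groups. It rose less than the locus as a whole: its share of the summed CPM was 28.7%, 26.4% and 25.8% in NanogKO libraries, 23.0%, 20.4% and 23.2% in those of NanogKO:Esrrb, and 22.9%, 20.2% and 18.7% in those of NanogKO:Esrrb:Nanog.

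The Mir6352 region (chr1:77496691-77497316), whose middle lies 18.1 kb into the gene, had 8.32, 9.61 and 8.92 CPM in the NanogKO libraries, 25.4, 22.6 and 24.1 CPM in the NanogKO:Esrrb libraries, and 27.2, 28.7 and 34.0 CPM in the NanogKO:Esrrb:Nanog libraries. The 3 groups did not overlap. Fitted log2 fold changes were 1.42 ± 0.12 with Esrrb, 1.74 ± 0.12 with both factors and 0.32 ± 0.12 between these groups. Per kb of region, its mean of 14.3 CPM in NanogKO was below the promoter's 17.9 CPM, while its 38.4 and 47.8 CPM in the groups with Esrrb were above the promoter's 28.1 and 28.6 CPM. The promoter region is 2502 bp long and this one 626 bp. The crossing was not particular to it, as the region 63.3 kb into the gene had 6.22, 34.2 and 35.0 CPM per kb.

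The largest rise with both factors among the better covered regions was 12.4 kb into the gene (chr1:77502551-77502805). This region had 1.0, 0.919 and 1.56 CPM in the NanogKO libraries, 4.05, 4.37 and 3.81 CPM in the NanogKO:Esrrb libraries, and 7.75, 9.3 and 7.94 CPM in the NanogKO:Esrrb:Nanog libraries. Its groups formed 3 separate steps. The fitted change was 2.84 ± 0.19 with both factors, 7.15-fold, of which 1.81 ± 0.19 was present with Esrrb and 1.03 ± 0.17 lay between the groups with Esrrb.

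Near the middle of the gene, a pair of neighbouring regions gained as much with Esrrb as with both factors. The one 61.1 kb from the start (chr1:77453775-77454231) had 1.78, 1.73 and 2.62 CPM in the NanogKO libraries, 10.4, 13.6 and 8.02 CPM in the NanogKO:Esrrb libraries, and 11.2, 11.4 and 15.9 CPM in the NanogKO:Esrrb:Nanog libraries. The one at 63.3 kb (chr1:77451667-77451958) had 1.39, 2.15 and 1.91 CPM, then 9.88, 11.1 and 8.98 CPM, then 8.65, 8.51 and 13.5 CPM. In both, the groups with Esrrb overlapped each other and lay above NanogKO. Fitted changes with both factors were 2.65 ± 0.2 and 2.49 ± 0.19, and between the groups with Esrrb 0.27 ± 0.17 and 0.04 ± 0.17. Without the 3 libraries numbered 3, the last pair of values became -0.09 and -0.29.

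The region with the largest rise with Esrrb lay 38.6 kb into the gene (chr1:77476068-77476835). It had 1.02, 1.1 and 0.933 CPM in the NanogKO libraries, 5.66, 8.62 and 6.12 CPM in the NanogKO:Esrrb libraries, and 4.08, 4.52 and 7.42 CPM in the NanogKO:Esrrb:Nanog libraries. Its level with both factors was not above that with Esrrb, and the groups with Esrrb overlapped. The fitted change was 2.74 ± 0.23 with Esrrb, 6.66-fold, 2.39 ± 0.23 with both, and -0.34 ± 0.2 between them. The NanogKO:Esrrb peak list holds it, and the lists of both other groups do not.

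Farther along, the region 101.9 kb into the gene (chr1:77412924-77413380) had 1.54, 1.8 and 1.54 CPM in the NanogKO libraries, 4.87, 5.66 and 3.97 CPM in the NanogKO:Esrrb libraries, and 6.57, 6.98 and 7.73 CPM in the NanogKO:Esrrb:Nanog libraries. It rose in 2 steps, with no overlap between any groups, by 1.57 ± 0.18 with Esrrb and by a further 0.55 ± 0.16 with Nanog. The third region by CPM, 53.0 kb into the gene (chr1:77461666-77462479), gained less. It had 6.05, 6.78 and 7.03 CPM in the NanogKO libraries, 11.5, 14.2 and 11.6 CPM in the NanogKO:Esrrb libraries, and 11.3, 11.1 and 11.2 CPM in the NanogKO:Esrrb:Nanog libraries. Its changes were 0.91 ± 0.13 and 0.76 ± 0.13 against NanogKO.

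**Figure D3:**
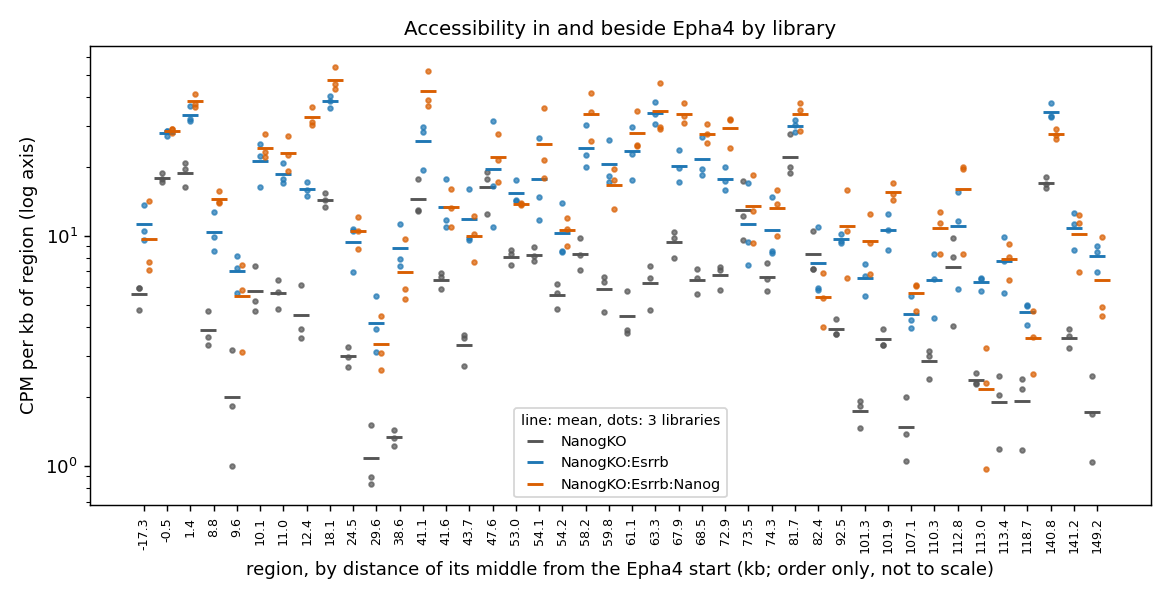
CPM per kb of region (y axis, log scale) for the regions inside Epha4, over its start and next to it on either side, in order of their distance from the start in kb (x axis, not to scale), with dots for the 9 libraries and lines for group means. NanogKO lay lowest at most regions, and at the 12.4 kb region the groups formed 3 steps.

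One region differed from all of these by not gaining with Esrrb. It lies 70392 bp upstream of the gene (chr1:77585499-77585814) within the long non-coding RNA gene Gm32793, and among the 35 Epha4 regions at or above the median abundance it was both the largest rise with Nanog on top of Esrrb and among the 6 largest rises with both factors. It had 1.02, 2.15 and 1.5 CPM in the NanogKO libraries, 1.57, 2.31 and 2.04 CPM in the NanogKO:Esrrb libraries, and 4.67, 6.84 and 9.49 CPM in the NanogKO:Esrrb:Nanog libraries. NanogKO and NanogKO:Esrrb overlapped, and all libraries with both factors lay above them. The fitted change was 0.33 ± 0.25 with Esrrb, 2.15 ± 0.25 with both and 1.83 ± 0.24 between the groups with Esrrb, 3.54-fold.

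Among the 35 Epha4 regions at or above the median abundance, 3 had a fitted change below 0 with both factors. Abundance was averaged over all 9 libraries, most of them with Esrrb, so regions high only in NanogKO pass this cut less easily. The low number of falls is thus in part built in. Inside the gene, the region 82.4 kb from the start (chr1:77432440-77432970) had 3.8, 5.6 and 3.81 CPM in the NanogKO libraries, 3.16, 5.83 and 3.1 CPM in the NanogKO:Esrrb libraries, and 2.14, 2.85 and 3.67 CPM in the NanogKO:Esrrb:Nanog libraries. Replicate 2 was the highest library in both groups without Nanog, and all 3 libraries with both factors lay below all NanogKO libraries. The changes were -0.13 ± 0.22 with Esrrb and -0.61 ± 0.23 with both. The other two, 107085 bp beyond the end of the gene (chr1:77259816-77260097) and 114888 bp upstream of it (chr1:77629995-77630206), had changes of -0.11 ± 0.26 and -0.00 ± 0.21 with both factors, and their libraries overlapped in every comparison.

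**Figure D4:**
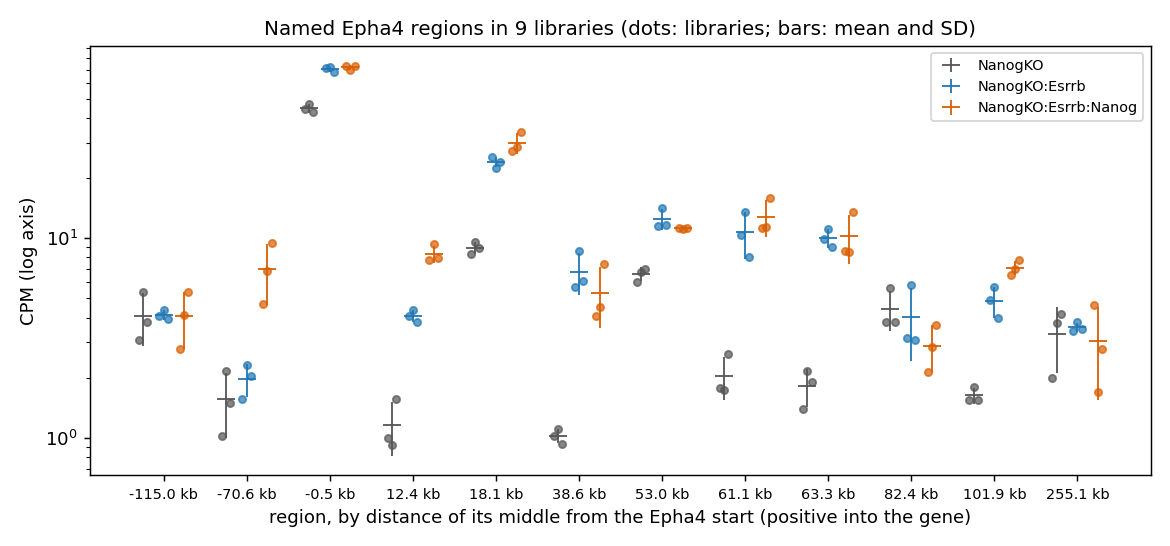
CPM (y axis, log scale) of the promoter region and 11 other Epha4 regions chosen by abundance and by size of change, by distance of the middle from the start in kb (x axis), with dots for 9 libraries and bars for mean and SD of 3. The region at -70.6 kb stayed at NanogKO levels with Esrrb and was 4.67 to 9.49 CPM with Nanog as well.

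Regions of lower abundance over all 9 libraries held the larger falls of the locus, and those named here were chosen after their values were seen. The deepest lay 108002 bp beyond the end of the gene (chr1:77258829-77259180), with 3.59, 3.8 and 4.1 CPM in the NanogKO libraries, 1.17, 0.821 and 0.835 CPM in the NanogKO:Esrrb libraries, and 0.373, 0.323 and 0.484 CPM in the NanogKO:Esrrb:Nanog libraries. It closed in 2 steps without overlap, by -2.03 ± 0.22 with Esrrb and -3.24 ± 0.25 with both factors. It lies within 1 kb of the region at 107085 bp, whose libraries overlapped. Other falls were at 137251 bp beyond the end (chr1:77229710-77229931), with -0.47 ± 0.22 and -1.54 ± 0.24, at 147179 bp (chr1:77219687-77220003), with -1.24 ± 0.24 and -1.41 ± 0.25, and at 82715 bp upstream (chr1:77597822-77597984), with -1.56 ± 0.28 and -1.74 ± 0.29. These 4 regions were in the NanogKO peak list and in neither other list. One more region fell by over 1 on the log2 scale with both factors, 84552 bp upstream (chr1:77599659-77599914, -0.24 ± 0.28 and -1.14 ± 0.3), and it was in the NanogKO:Esrrb list alone.

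The regions called higher with Esrrb and back down with Nanog were both short. One lies 113.0 kb into the gene (chr1:77402035-77402098), with means of 0.152, 0.401 and 0.139 CPM in NanogKO, then NanogKO:Esrrb, then NanogKO:Esrrb:Nanog. The other lies 25909 bp beyond its end (chr1:77341119-77341273), with means of 0.289, 0.641 and 0.278 CPM. Both levels are low, so their folds rest on few reads.

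The authors' peak lists, which were made 1 per group, come from the same reads as the counts, and their overlap with the Epha4 regions is a description only. Of the 69 regions, 33 (47.8%) overlapped a peak of the NanogKO list, 57 (82.6%) one of the NanogKO:Esrrb list and 47 (68.1%) one of the NanogKO:Esrrb:Nanog list. Over all counted regions the shares were 75.4%, 81.5% and 73.8%. All 3 lists shared 23 of the Epha4 regions (33.3%, against 55.3% of all), and both lists with Esrrb shared a further 19 that NanogKO lacked (27.5%, against 10.2%). Alone in 1 list were 12 regions of NanogKO:Esrrb, 7 of NanogKO and 5 of NanogKO:Esrrb:Nanog, or 17.4%, 10.1% and 7.25%, where 8.63%, 10.2% and 5.79% of all regions were. The names of the peaks in both lists with Esrrb carry the sample number of the same NanogKO:Esrrb library, so regions open only with Nanog may be missing from the counted set.

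At the edges of the stretch nearest to Epha4, the outermost region beyond the 3′ end (chr1:76649582-76649789, 717393 bp from the gene) had means of 1.11, 1.97 and 2.43 CPM in NanogKO, then NanogKO:Esrrb, then NanogKO:Esrrb:Nanog. The next region out, nearer to Slc4a3 (chr1:76312179-76312330), had 0.489, 0.62 and 0.458 CPM. On the other side the outermost Epha4 region (chr1:77754399-77754776, 239292 bp upstream) had 1.05, 2.51 and 3.46 CPM, and the next one, nearer to Pax3 (chr1:77824611-77824829), had 1.09, 0.737 and 0.42 CPM. The counted regions at the ends of the window had 6.68, 8.48 and 12.9 CPM (chr1:76028854-76029701) and 3.01, 3.33 and 3.84 CPM (chr1:77978614-77978938). Just outside it, they had 1.91, 1.73 and 1.79 CPM (chr1:75936730-75937074) and 8.99, 8.98 and 9.42 CPM (chr1:78008856-78009258). Both outermost Epha4 regions were higher in the groups with Esrrb, the next region toward Pax3 was lower with both factors, and those just outside the window had nearly the same mean in all groups.

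The 13 other regions of the window also gained, more evenly over the 2 steps. They summed to 26.8, 28.1 and 24.8 CPM in the NanogKO libraries, 36.4, 39.2 and 33.6 CPM in the NanogKO:Esrrb libraries, and 46.8, 49.2 and 50.8 CPM in the NanogKO:Esrrb:Nanog libraries, with no overlap between groups. The ratios to NanogKO were 1.37 and 1.84, against 1.92 and 2.11 for the Epha4 regions, and the ratio between the groups with Esrrb was 1.34 against 1.1. Called higher were 5, 7 and 4 of them in NanogKO:Esrrb against NanogKO, NanogKO:Esrrb:Nanog against NanogKO, and NanogKO:Esrrb:Nanog against NanogKO:Esrrb, and called lower 1, 2 and 0. Of all tested regions, 20.0%, 24.9% and 12.6% were called higher in the same order, and 17.0%, 24.4% and 12.0% lower. Their largest rise was at chr1:76036398-76036703, within the long non-coding RNA gene Gm32622, with means of 0.763, 3.16 and 5.18 CPM and a change of 2.75 ± 0.2 with both factors. Toward Pax3, the regions at chr1:77947172-77947418 and chr1:77959418-77959765 rose by 1.69 ± 0.24 and 1.47 ± 0.2.

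On either side of the window, stretches of 1 Mb that the choice of the locus did not use showed smaller shifts. From 75 to 76 Mb, 10 of 115 regions were called higher and 25 lower with Esrrb, with a median log2 fold change of -0.12, and 25 higher and 19 lower with both factors, with a median of 0.02. From 78 to 79 Mb, 26 of 73 regions were called higher and 5 lower with Esrrb, with a median of 0.35, and 23 higher and 14 lower with both, with a median of 0.16. The calls of the first stretch were thus mostly lower with Esrrb, and those of the second mostly higher, though the 25 lower calls became 16 without NanogKO replicate 2 and 16 without NanogKO:Esrrb replicate 1. Over all 10254 tested regions of chr1 the medians were -0.01 and -0.04. Of all tested regions of the series, 20.0% were called higher and 17.0% lower with Esrrb, and 24.9% and 24.4% with both factors. In the first stretch these shares were 8.70% and 21.7%, then 21.7% and 16.5%. In the second they were 35.6% and 6.85%, then 31.5% and 19.2%.

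Genes whose regions followed a profile like that of Epha4 were sought among 10267 genes with at least 5 regions. Counts were summed over the regions nearest to each gene, put on a log2 CPM scale and centred over the 9 libraries, and likeness was the root mean square difference from Epha4. The Epha4 sum stood at group means of -0.67, 0.27 and 0.4 on that scale. The nearest profiles were those of Kank4 (22 regions, difference 0.063), which encodes an ankyrin repeat protein, Crnn (6 regions, 0.065), the epidermal protein cornulin, Ocm (7 regions, 0.079), the calcium-binding oncomodulin, Kcnf1 (18 regions, 0.08), a potassium channel subunit, and Lmbrd2 (12 regions, 0.084), a membrane protein. The median difference over all genes was 0.5. Pearson's r with Epha4 was 0.99 to 0.996 over the 9 libraries, which all genes share along with their scaling. Summed CPM of Kank4 was 126 in NanogKO, 247 with Esrrb and 278 with both factors.

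The other Eph receptor genes did not move together. Within 50 kb of 13 of them, 60 of 265 regions were called higher and 41 lower in NanogKO:Esrrb against NanogKO, and 74 higher and 45 lower in NanogKO:Esrrb:Nanog. The median log2 fold changes of 0.03 and 0.04 were close to the -0.01 of all regions, and the calls compare with 20.0% higher and 17.0% lower, and 24.9% and 24.4%, of all regions. For Epha2, a receptor for A-class ephrins, 20 of 37 regions were called higher and 0 lower in each of these comparisons. For Epha8, 7 of 20 were called lower and 0 higher with Esrrb, and 7 lower and 4 higher with both factors. Epha7 had no call in 5 regions with both factors.

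For each Eph gene the region with the smallest p with both factors was taken, so these regions are the extremes of their genes. Within Epha2, a region (chr4:141322395-141322869) had 2.24, 2.09 and 2.98 CPM in the NanogKO libraries, 7.17, 6.1 and 5.78 CPM in the NanogKO:Esrrb libraries, and 7.94, 9.36 and 8.3 CPM in the NanogKO:Esrrb:Nanog libraries. It rose by 1.38 ± 0.16 with Esrrb (edgeR adjusted p = 2.3e-07) and by 1.8 ± 0.17 with both factors (1e-09). Among genes of B-class receptors, regions rose by 2.29 ± 0.19 within Ephb1 (chr9:102148378-102148978, edgeR adjusted p = 1.5e-10), by 2.17 ± 0.16 near Ephb3 (chr16:21163413-21163919, 2.2e-11) and by 1.58 ± 0.12 near Ephb4 (chr5:137339395-137340091, 3.2e-11). Over all regions of these genes, calls with both factors were 7 higher and 7 lower of 19 for Ephb1. They were 8 and 2 of 23 for Ephb3, and 8 and 8 of 32 for Ephb4. Of all tested regions of the series, 24.9% were called higher and 24.4% lower.

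The extreme regions of other Eph genes went the opposite way, while the calls over all regions of these genes were mixed. With both factors, 12 of 54 regions were called higher and 8 lower for Ephb2, and 2 and 2 of 8 for Ephb6. For Epha1 it was 3 and 4 of 13, and for Epha8 4 and 7 of 20. The medians were 0.03, -0.26, -0.05 and -0.21 in the same order. Of all tested regions, 24.9% were called higher and 24.4% lower. Within Ephb2 a region (chr4:136732382-136733744) fell from 25.4, 23.2 and 21.9 CPM in the NanogKO libraries to 7.55, 8.47 and 10.9 CPM in the NanogKO:Esrrb libraries and 7.46, 6.16 and 8.02 CPM in the NanogKO:Esrrb:Nanog libraries, a change of -1.7 ± 0.14 with both factors (edgeR adjusted p = 1.6e-10). The groups with Esrrb lay far below NanogKO and overlapped each other. Regions near Ephb6 (chr6:41636030-41636465, -2.35 ± 0.27, edgeR adjusted p = 6.7e-08) and Epha8 (chr4:136983931-136984484, -1.17 ± 0.16, 6.9e-07) and within Epha1 (chr6:42364544-42365079, -1.24 ± 0.2, 7.9e-06) fell too.

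Ephrin genes encode the ligands. Within 50 kb of 8 of them, 15 of 154 regions were called higher and 27 lower in NanogKO:Esrrb, where 20.0% and 17.0% of all regions were, and 42 higher and 23 lower in NanogKO:Esrrb:Nanog, where it was 24.9% and 24.4%. Between the groups with Esrrb, 34 were called higher and 10 lower, with a median of 0.14, where 12.6% and 12.0% of all regions were. Efna2 had 17 of its 35 regions called higher with both factors. Between the groups with Esrrb, Eph receptor and ephrin genes together had 77 higher calls, and scaling on regions near gene ends took these to 42, and library totals alone took them to 45. They were 46 without NanogKO:Esrrb replicate 3, 46 without NanogKO:Esrrb:Nanog replicate 1 and 51 without its replicate 2. The 68 lower calls of both families with Esrrb were 39 without NanogKO replicate 1 and 42 without NanogKO:Esrrb replicate 1.

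Efnb2, the gene of a transmembrane ligand that EPHA4 can bind, had 4 of 19 regions called higher and 5 lower with both factors. Between the groups with Esrrb it was 0 higher and 5 lower. The medians were -0.11 and -0.27. Of all tested regions, 24.9% were called higher and 24.4% lower with both factors, and 12.6% and 12.0% between the groups with Esrrb. The Efnb2 region of smallest p (chr8:8674773-8675586) rose, against its median of -0.11. It had 1.98, 1.86 and 1.52 CPM in the NanogKO libraries, 8.27, 10.8 and 6.73 CPM in the NanogKO:Esrrb libraries, and 10.8, 9.68 and 11.6 CPM in the NanogKO:Esrrb:Nanog libraries. The groups with Esrrb overlapped each other and lay above NanogKO. The change was 2.27 ± 0.18 with Esrrb (edgeR adjusted p = 1.9e-10) and 2.59 ± 0.18 with both factors (5.6e-12). A region near Efna2 (chr10:80158601-80158990) rose by 1.6 ± 0.14 with both (6.3e-10) and by 0.86 ± 0.14 between the groups with Esrrb (7.6e-05). Efna1, Efna3 and Efna4 lie side by side and shared a region (chr3:89328604-89329116) that rose by 1.34 ± 0.14 (1.6e-08), and a region near Efna5 (chr17:62926656-62927071) fell, by -1.71 ± 0.25 (2.6e-06).

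**Figure D5:**
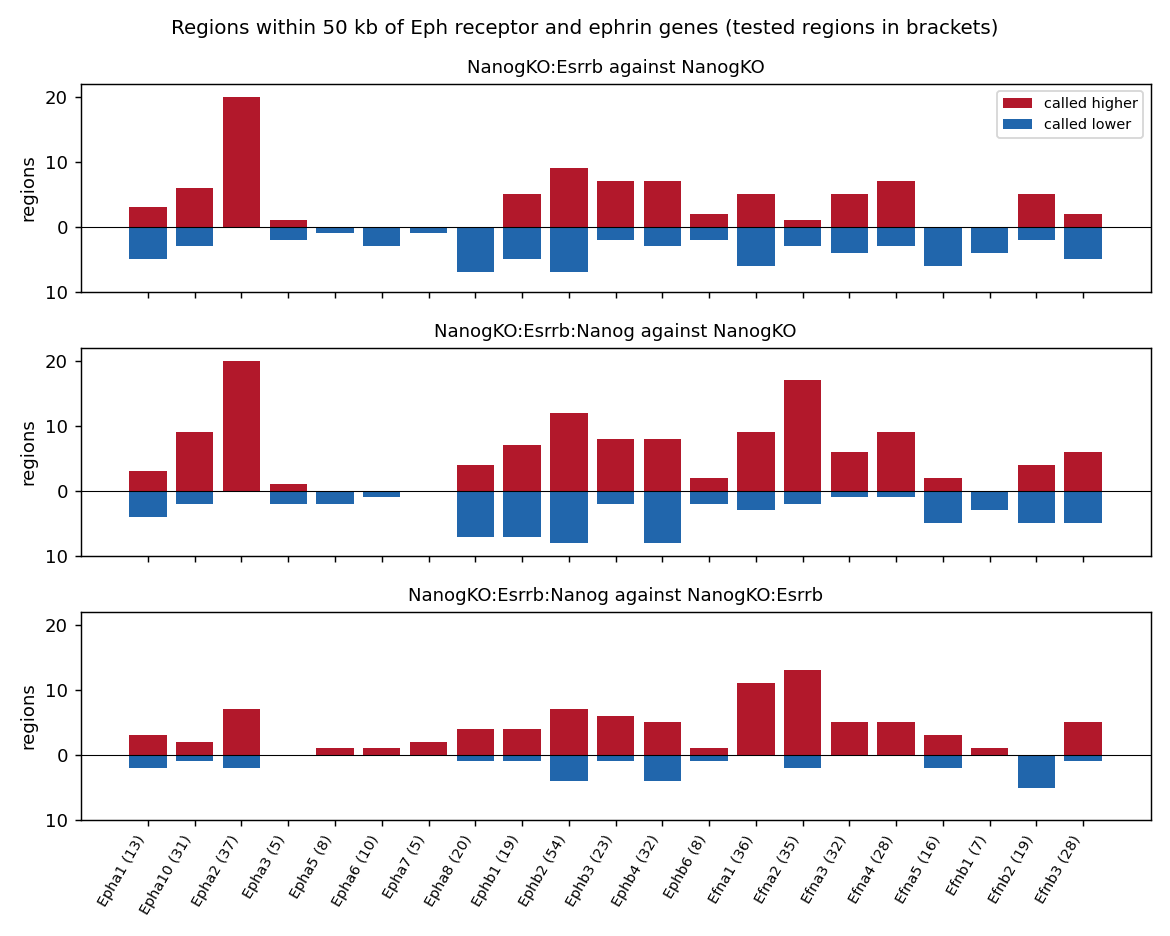
Number of regions (y axis) called higher (up) and lower (down) within 50 kb of each Eph receptor gene other than Epha4 and each ephrin gene, with the number of tested regions in brackets, for each of the 3 comparisons; a region near several genes counts for each. Epha2 had 20 regions called higher and 0 lower in both comparisons with NanogKO.

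Genes of proteins that act with or downstream of Eph receptors, among them the kinase genes Fyn, Src and Abl1, were called about as often as all regions. Within 50 kb of 18 such genes, 107 of 550 regions were called higher and 105 lower with Esrrb, and 133 higher and 119 lower with both factors, with medians of -0.01 and 0.07, where 20.0% and 17.0%, and 24.9% and 24.4%, of all regions were called. Kalrn, which encodes the signalling protein kalirin, had 20 of 51 regions called higher and 5 lower with both factors. Sipa1l1, which encodes a protein that binds EPHA4, had 6 of 33 higher and 14 lower.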

How the data were processed

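ATAC-seq was analysed in 9 libraries. The authors deposited raw counts, whole reads per region with no normalization, and 1 peak list per group, whose peak score (13 or more) is the authors' own and was not used. Per the submitters' processing notes the build was mm10, and the tools named are MACS2 2.2.0, Bowtie2, bedtools 2.26.0, cutadapt, deepTools 4.4.0, SAMtools 1.4.1 and bcl2fastq 2.19.1; the counting tool, any shift of reads for the transposase and any removal of duplicates are not given in the sources used here. The 157497 counted regions equal the merge of the 3 lists, so sites outside the lists were not counted.

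Counts were fitted with edgeR 4.0.16 in R 4.3.3: 1 fit of group means over 9 libraries, TMM scaling, filterByExpr (157439 regions tested), quasi-likelihood F test with 6 residual degrees of freedom, Benjamini-Hochberg adjustment over all tested regions and calls under 0.05. The fit was also run on simulated data in which far fewer regions changed than were called here, so that run does not measure its errors on these data. A standard error is the log2 fold change divided by the square root of F. Regions were assigned to protein-coding genes by distance to the RefSeq GRCm38.p6 span; sequences come from the RefSeq tables of the same build, where 17492 of 21900 protein-coding genes had a promoter. Exons and introns were not told apart, as no genome annotation with exons was used.

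The members and lists were chosen with earlier results of these data known. Named Epha4 regions are the promoter region, the 6 largest rises and up to 4 largest falls with both factors at or above the median abundance, the 3 with the highest CPM, the largest rise and fall with Nanog on top of Esrrb, and the edges; for other regions the 3 largest rises and falls at or above their own median abundance, and for each Eph receptor or ephrin gene the called region of smallest p. At these abundances, 3 Epha4 regions and none of the others had a fall with both factors. Abundance is the mean log2 CPM over all 9 libraries, which favours regions high in the groups with Esrrb.

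Libraries with the same replicate number correlated in their deviations from group means at 0.117 to 0.152 (NanogKO and NanogKO:Esrrb), 0.105 to 0.146 (both groups with Esrrb) and 0.002 to 0.136 (the remaining pair of groups). The main fit of group means did not pair libraries by number. A block for the replicate number was used only as an alternative to that fit, for each comparison. Such a pairing rests on the values alone, since no label ties a number to a culture or date. No libraries of a group were copies (chi-square per region of 3.55 to 9.49). Alternatives were DESeq2 1.42.0, other scalings and count filters, fits of 2 groups, the replicate block, leaving out libraries, other distances and gene starts.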

Additional observations from a re-analysis of the deposited data

How the results depend on the processing

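The counts of Epha4 regions called against NanogKO stayed within 1.5 times their values under every scaling, filter, tool, block and left-out library tried, and no called change of a named region reversed over 2211 combinations of a region, a comparison and an alternative (14 at named regions of the window moved by over 1 SD of the replicates; at Eph receptor and ephrin regions 37 lost the call and 7 gained it). Counts between the groups with Esrrb did not: leaving out 1 library gave 4 to 12 higher (main 11) and 3 to 11 lower (main 7), and leaving out all replicates 3 together, an alternative chosen after seeing the data, gave 6 and 13. The median with both factors against NanogKO was 1.14 to 1.34. Replicates are 3 per group, and regions under 1 CPM rest on few reads.
With the replicate block, 48 Epha4 regions stayed called higher and 3 lower with Esrrb, 47 and 7 with both factors, and 11 and 7 between the groups with Esrrb; the block changed no count of calls by more than 1.5 times.
Regions in or within 50 kb of Epha4 alone gave a median of 1.38 and 0 lower calls with Esrrb, 1.54 and 1 with both factors, and 7 higher and 2 lower between the groups with Esrrb; the rest of the window then held 13 higher and 4 lower, 16 and 8, and 8 and 5. By nearest gene start, 1 of the other regions was called lower with both factors.
With TMM scaling on regions within 1 kb of a gene end, calls between the groups with Esrrb were 5 higher at Epha4, 16 from 75 to 76 Mb (median 0.03), 2 from 78 to 79 Mb, 42 at Eph receptor and ephrin genes and 11231 of all regions (median -0.12; higher calls 32.7% of calls, main 51.1%); with Esrrb against NanogKO, lower calls were 15 from 75 to 76 Mb and 38 at Eph genes, and the median of all regions was 0.06. With library totals alone, those higher calls were 6, 45 at Eph genes, 2 from 78 to 79 Mb and 12765 of all (median -0.11; 33.5% of calls), 1 other region of the window was lower, the 75 to 76 Mb medians were -0.08 with both factors and 0.04 between the groups with Esrrb, and the median of all regions with both factors was -0.1 (higher calls 42.2%, main 50.5%). Fitting only 2 groups gave 8 lower calls with Esrrb from 78 to 79 Mb.
Counting within 10 kb of Eph receptor and ephrin genes gave 37 higher calls with Esrrb, 57 higher and 41 lower with both factors, and 40 and 12 between the groups with Esrrb; within 100 kb, 184 and 121 were higher with both factors and between the groups with Esrrb.
Leaving out 1 library gave these further ranges. Other regions of the window had a median with Esrrb of 0.42 to 0.57 and 0 to 1 lower calls between the groups with Esrrb. From 75 to 76 Mb, 16 to 29 regions were lower with Esrrb, and 15 to 34 higher and 4 to 9 lower between the groups with Esrrb; from 78 to 79 Mb, 1 to 5 were higher there. At Eph receptor and ephrin genes, 39 to 75 were lower with Esrrb, and 46 to 101 higher and 16 to 34 lower between the groups with Esrrb. Of all regions, 12526 to 24714 were higher and 11821 to 25288 lower between those groups. The counts furthest below the 19777 and 18935 called with all libraries came without NanogKO:Esrrb replicate 3 (12526 and 12066), NanogKO:Esrrb:Nanog replicate 1 (11821 lower) and its replicate 2 (13175 and 12256).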
